A study of Mus musculus with 93 samples.

Results

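Heat shock, chaperone and cold-inducible genes were followed in the livers of 93 mice, 45 wild-type and 48 lacking PPARα, the nuclear receptor that fatty acids and fibrate drugs activate in liver. Members were the probesets, the sets of short oligonucleotides that report 1 transcript on the array, whose only gene symbol in the platform annotation was Hspa1a, Hspa1b, Hspa8, Hspa5, Hspb1, Hsph1, Dnajb1, Ddit3 or Cirbp. These 9 genes of 6661 measured under a single symbol had 18 probesets of 11412, and all 18 passed the filter on variation and were tested. Male mice were fasted for 4 h, received 400 µl by gavage and were killed 6 h later. In the first run (56 arrays) both genotypes received 0.5% carboxymethyl cellulose (control), 4 mg WY14643, 4 mg fenofibrate, or a triglyceride of C18:1, C20:5 or C22:6. In the later run (37 arrays) both received control, C10:0, C18:2 or C18:3. Groups held 5 mice, except that wild-type controls numbered 3 in the first run, and that wild-type WY14643, wild-type C18:2, PPARα −/− C20:5 and both controls of the later run numbered 4. Wild-type mice were of the 129S1/SvImJ substrain and PPARα −/− mice of the 129S4/SvJae substrain, so loss of the receptor and substrain cannot be told apart. Ages were given as 12 to 20 weeks for first-run controls and WY14643, and as 8 to 24 weeks for all other groups. The study's methods give this oil-free vehicle as the control treatment and do not name it separately for the later run. The 3 wild-type controls of the first run entered all 5 wild-type comparisons of that run, so those comparisons are not independent.

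Cytosolic heat shock proteins bind unfolded proteins and keep them from aggregating. Hspa1a, Hspa1b and the constitutive Hspa8 are HSP70 chaperones, Dnajb1 is an HSP40 co-chaperone that starts their ATPase cycle, Hsph1 (HSP110) is their nucleotide exchange factor, and Hspb1 (HSP27) is a small heat shock protein. Most are induced through HSF1, a factor that binds repeated GAA units in DNA. Hspa5 (BiP, GRP78) is the HSP70 of the endoplasmic reticulum (ER) and Ddit3 (CHOP) a transcription factor of the ER and amino acid stress responses. Cirbp is an RNA-binding protein known for its rise under mild cold.

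The stretches below show where the letters of known response elements lie upstream of member genes. They were read from RefSeq promoters on GRCm38.p6, which cover 250 bases before and 50 after each start site, and 8 of the 9 genes matched by symbol (all but Hspa8). Capitals mark a facing pair of heat shock units (GAANNTTC or TTCNNGAA) in the first 3, the ER stress element (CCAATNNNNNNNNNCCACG) in Hspa5 and the mild cold element (TCCCCGCC) in Cirbp. All are written 5′ to 3′ on the strand of the gene.

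Hspa1b, chr17:34959279-34959368, minus strand: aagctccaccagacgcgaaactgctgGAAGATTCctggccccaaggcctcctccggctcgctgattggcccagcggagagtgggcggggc

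Hspb1, chr5:135887739-135887838, plus strand: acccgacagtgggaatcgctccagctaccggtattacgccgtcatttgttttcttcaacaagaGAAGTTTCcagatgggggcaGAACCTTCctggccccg

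Hsph1, chr5:149636337-149636446, minus strand: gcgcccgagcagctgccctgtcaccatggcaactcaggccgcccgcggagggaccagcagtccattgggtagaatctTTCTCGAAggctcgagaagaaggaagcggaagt

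Hspa5, chr2:34771950-34772089, plus strand: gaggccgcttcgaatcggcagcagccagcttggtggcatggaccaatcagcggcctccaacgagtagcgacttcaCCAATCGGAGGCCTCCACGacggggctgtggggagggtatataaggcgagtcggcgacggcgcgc

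Cirbp, chr10:80167589-80167688, plus strand: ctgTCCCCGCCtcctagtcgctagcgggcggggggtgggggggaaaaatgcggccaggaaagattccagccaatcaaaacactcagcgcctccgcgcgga

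The pair in Hspa1b lay from -104 to -97 relative to the start site, and Hspa1a carried the same letters at the same place. The promoters of these near-identical genes differed at 4 of 300 bases. Whether their probesets each take up RNA of both was not tested. Hspb1 held pairs from -117 to -110 and from -97 to -90, and Hsph1 from -33 to -26 of one of its listed start sites, with further pairs after the start. No pair was found in the windows of Dnajb1, Hspa5, Ddit3 or Cirbp. A pair in either order, on either strand, was found in 15.1% of all 32851 promoters in the table. The ER stress element of Hspa5, from -65 to -47, was found in 0.119% of promoters, and the mild cold element of Cirbp, from -247 to -240, in 5.38%. The mild cold letters also stood on the opposite strand of both Hspa1a and Hspa1b from -137 to -130, and in a Dnajb1 window after the start site. A match describes letters, not an occupied site.

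Signals are given as log2 of the deposited linear intensity, a change is the difference of 2 group means on that scale with its standard error (SE), and a probeset was called when its Benjamini-Hochberg adjusted p from limma over all 10349 tested probesets was under 0.05. A group whose arrays all lay under a log2 signal of 5, about the lowest 10% of signals, is termed near background and no fold is given against it. Where a gene had several probesets, the one with the highest mean signal is used and the others are named beside it. Each SE and p drew on a spread pooled over all 20 groups, not only on the groups compared. In whole liver, fewer cells of a type and less RNA per cell cannot be told apart.

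WY14643 raised the heat-inducible cytosolic chaperones of wild-type liver. Of the 18 member probesets 12 were called, 11 higher and 1 lower, which is 66.7% of them against 26.8% of all tested probesets. The median change was 1.56 over the members and -0.05 over all probesets. Of the 9 genes, Hspa1a, Hspa1b, Hsph1, Dnajb1 and Hspa8 rose, Cirbp fell, and Hspb1, Hspa5 and Ddit3 did not pass the test by any of their probesets.

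Hspa1b had the largest fold among members above background in both groups. Its log2 signal was 8.11, 7.76 and 8.22 in the 3 controls and 11.47, 12.04, 10.12 and 12.13 in the 4 treated mice. All treated mice lay above all controls, the third of them by the least. The change was 3.41 (SE 0.84), a 10.6-fold rise (adjusted p = 0.0011). The other Hspa1b probesets gave 3.81 (1427127_x_at, adjusted p = 0.00056) and 3.88 (1427126_at, adjusted p = 0.0021).

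Hspa1a was near background in the controls, at 1.52, 1.72 and 2.13. In the treated mice it reached 6.27, 7.57, 3.08 and 7.99 (adjusted p = 1.8e-05). The treated mouse lowest for Hspa1a was also the one lowest for Hspa1b.

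Dnajb1 measured 7.37, 6.62 and 7.44 in controls and 8.80, 9.44, 8.41 and 9.17 after WY14643. The groups did not overlap, and the rise of 1.81 (SE 0.33) was 3.51-fold (adjusted p = 7.6e-06). Its second probeset rose by 1.51 (adjusted p = 1.3e-05). Hsph1 went from 7.76, 7.50 and 7.96 to 8.92, 9.93, 9.05 and 9.81, again without overlap. That rise of 1.69 (SE 0.45) was 3.23-fold (adjusted p = 0.0024), and the second probeset gave 1.87 (adjusted p = 0.0026).

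Hspa8 moved little. Its signals were 11.77, 11.87 and 11.75 in controls and 12.25, 12.36, 11.98 and 12.59 in treated mice, a 1.42-fold rise (log2 change 0.50, SE 0.16, adjusted p = 0.013). The probesets 1420623_x_at and 1420622_a_at were called too, at 0.54 and 0.67, while 1431182_at, near background in the controls, was not (adjusted p = 0.50). The call of the main probeset was lost without WY14643 mouse 4 (change 0.40, adjusted p = 0.072) and when only the groups compared were fitted (0.50, adjusted p = 0.053). That of 1420622_a_at was lost without WY14643 mouse 4, control mouse 1 or control mouse 3 (adjusted p = 0.063, 0.064 and 0.052).

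Hspb1 was 5.01, 5.04 and 4.91 in controls and 5.74, 7.95, 6.01 and 6.70 in treated mice. All treated mice were higher, but the change of 1.61 (SE 0.73) did not pass the test (adjusted p = 0.091), nor did that of the second probeset (1.77, adjusted p = 0.054). The main probeset did pass with array weights (2.01, adjusted p = 0.0054) and, just under the threshold, with only the groups compared fitted. Markers of other liver cells gave no call with WY14643: 0 of 13 Kupffer cell and macrophage markers, 0 of 9 endothelial and 0 of 10 stellate markers passed. The summed macrophage signal was 10.41 to 11.11 in treated and 10.39 to 11.16 in control mice. The sums were lower on average for endothelial markers (10.14 to 10.31 in treated, 10.27 to 10.52 in control mice) and stellate markers (10.27 to 10.45 and 10.37 to 10.66), with overlap, and their part in the result was not tested. Of 12 hepatocyte markers 3 fell, Fgb by 0.55, Cps1 by 0.52 and Ahsg by 0.43 on the log2 scale. Over all probesets 26.8% were called with WY14643.

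**Figure D1:**
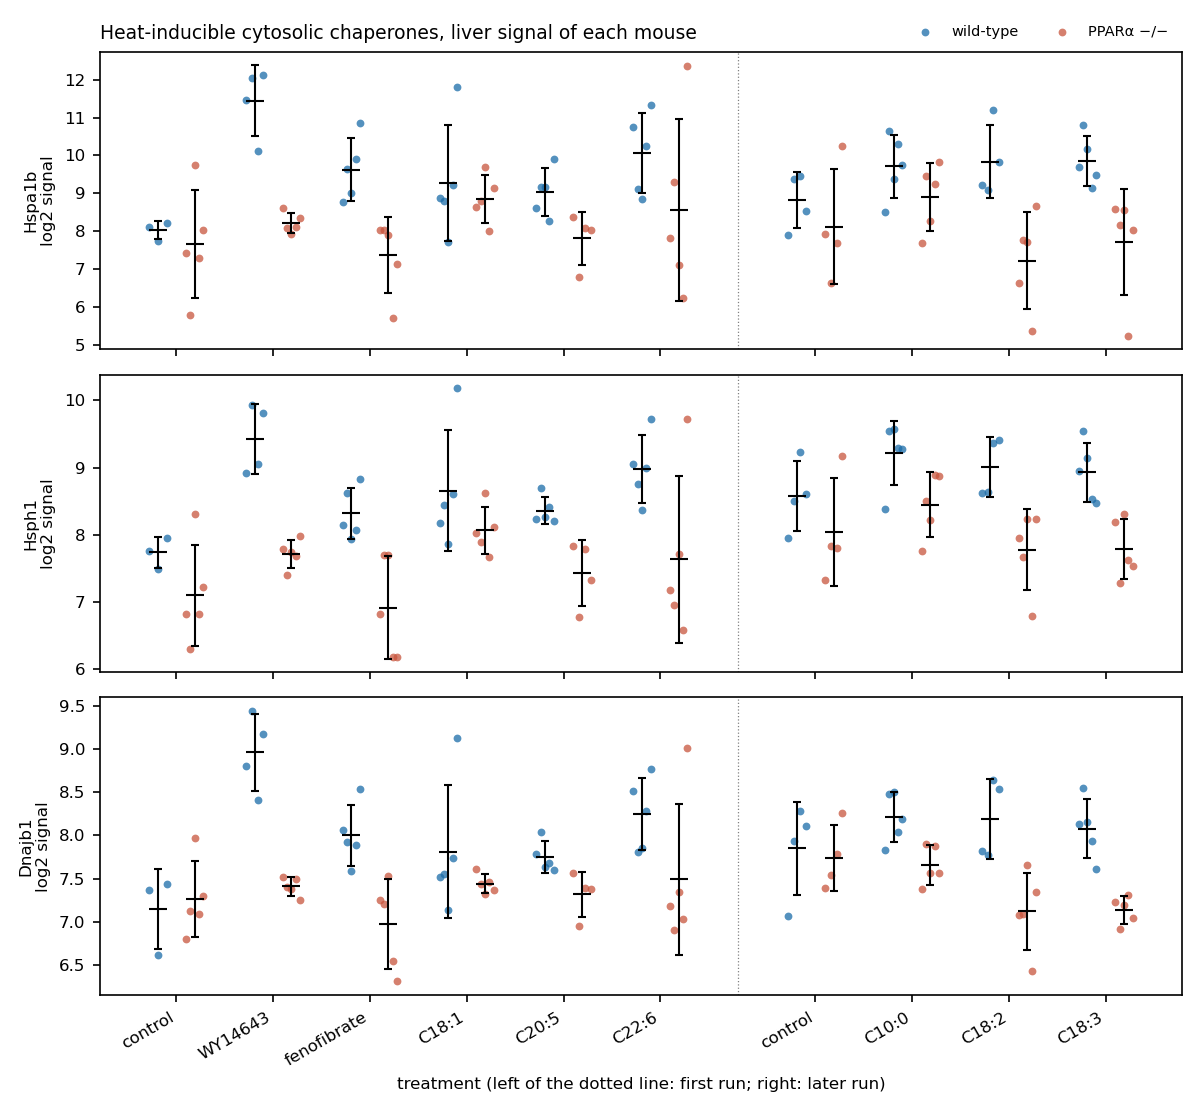
Log2 signal of Hspa1b, Hsph1 and Dnajb1 (main probesets, y axes) in every mouse, by treatment and genotype (x axis). Points are mice, horizontal marks are group means and bars are ± 1 SD. The 4 wild-type mice given WY14643 lay above all 3 wild-type controls for each gene, and 1 PPARα −/− mouse stood high after C22:6.

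The other wild-type treatments gave fewer member calls. Of the 18 probesets 4 were called with C22:6, 3 higher and 1 lower (22.2%, against 5.87% of all tested), and 0 with the other 6. Percentages called over all probesets were 13.9% for fenofibrate, 0.0% for C18:1, 0.551% for C20:5, 1.59% for C10:0, 0.435% for C18:2 and 3.52% for C18:3. At an unadjusted p under 0.05, 6 member probesets passed with fenofibrate (25.4% of all probesets did), 5 with C18:1 (8.04%), 1 with C20:5 (9.28%), 4 with C10:0 (13.6%), 4 with C18:2 (11.2%) and 7 with C18:3 (14.9%). That threshold was passed by 15 with WY14643 (36.1%) and 15 with C22:6 (18.5%). WY14643 and C22:6 were not set directly against each other. The study's own threshold, an unadjusted p under 0.01, was passed by 12 members with WY14643 (25.2% of all probesets) and 8 with C22:6 (9.35%). It was passed by 2 with C18:2 (3.89%), 2 with C18:3 (6.97%), 1 with fenofibrate (15.5%), 1 with C18:1 (2.33%), 0 with C20:5 (3.36%) and 0 with C10:0 (5.65%).

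With C22:6, Dnajb1 measured 8.52, 7.81, 7.85, 8.28 and 8.77, all above the 3 controls. The rise was 1.10 (SE 0.31), 2.15-fold (adjusted p = 0.019), and 0.98 by the second probeset (adjusted p = 0.014). Hspa8 was called by 1420623_x_at at 0.52 (adjusted p = 0.019) and not by its main probeset (0.39, adjusted p = 0.13). Hspa1b lay at 10.75, 9.13, 8.85, 10.26 and 11.33, above every control, with a change of 2.03 that did not pass (SE 0.81, adjusted p = 0.13). Hsph1 likewise lay above all controls, from 8.37 to 9.73 (change 1.25, adjusted p = 0.07). With 3 controls, lying above all of them is a description and not a call.

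These C22:6 calls depended on single mice. Without C22:6 mouse 5, 0 of the 18 probesets were called, and likewise when only the groups compared were fitted. The main Dnajb1 call was also lost without control mouse 2 (change 0.84, adjusted p = 0.19) or C22:6 mouse 1.

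Fenofibrate left Dnajb1 just outside the threshold. Its signals were 8.06, 7.92, 7.59, 7.89 and 8.54, all above the controls (change 0.85, SE 0.31, adjusted p = 0.053). Hspa1b was 8.77 to 10.85, also above all controls, with a change of 1.61 (adjusted p = 0.20). Set directly against fenofibrate, WY14643 gave 2 called probesets of 18, Hspa1a (adjusted p = 0.0039) and Dnajb1 1416756_at (0.88 higher, SE 0.25, adjusted p = 0.041, lost in 6 of 9 fits with 1 mouse left out), where 1.86% of all probesets were called. The main Dnajb1 probeset differed by 0.96 (adjusted p = 0.057), Hsph1 by 1.11 (adjusted p = 0.14) and Hspa1b by 1.80 (adjusted p = 0.22). Without WY14643 mouse 2 or mouse 4 the Hspa1a call of that contrast was lost (adjusted p = 0.06 without mouse 4), as it was with only those groups fitted (adjusted p = 0.082).

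Among wild-type mice of the first run, mean Hspa1b signal was 11.44 ± 0.93 (SD, n = 4) after WY14643, 10.06 ± 1.05 (n = 5) after C22:6, 9.63 ± 0.82 (n = 5) after fenofibrate, 9.28 ± 1.52 (n = 5) after C18:1, 9.03 ± 0.63 (n = 5) after C20:5 and 8.03 ± 0.24 (n = 3) in controls. From C22:6 down to C20:5, neighbours in that order lay within 1 SD of each other. In the later run the order was C18:3 at 9.86 ± 0.65 (n = 5), C18:2 at 9.84 ± 0.96 (n = 4), C10:0 at 9.72 ± 0.83 (n = 5) and control at 8.82 ± 0.74 (n = 4). The means of these 3 triglycerides differed by less than the SD of any of them. One C18:1 mouse, number 5, carried most of that group's spread, with Hspa1b at 11.80, Hspb1 at 9.28 and Hsph1 at 10.18.

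**Figure D2:**
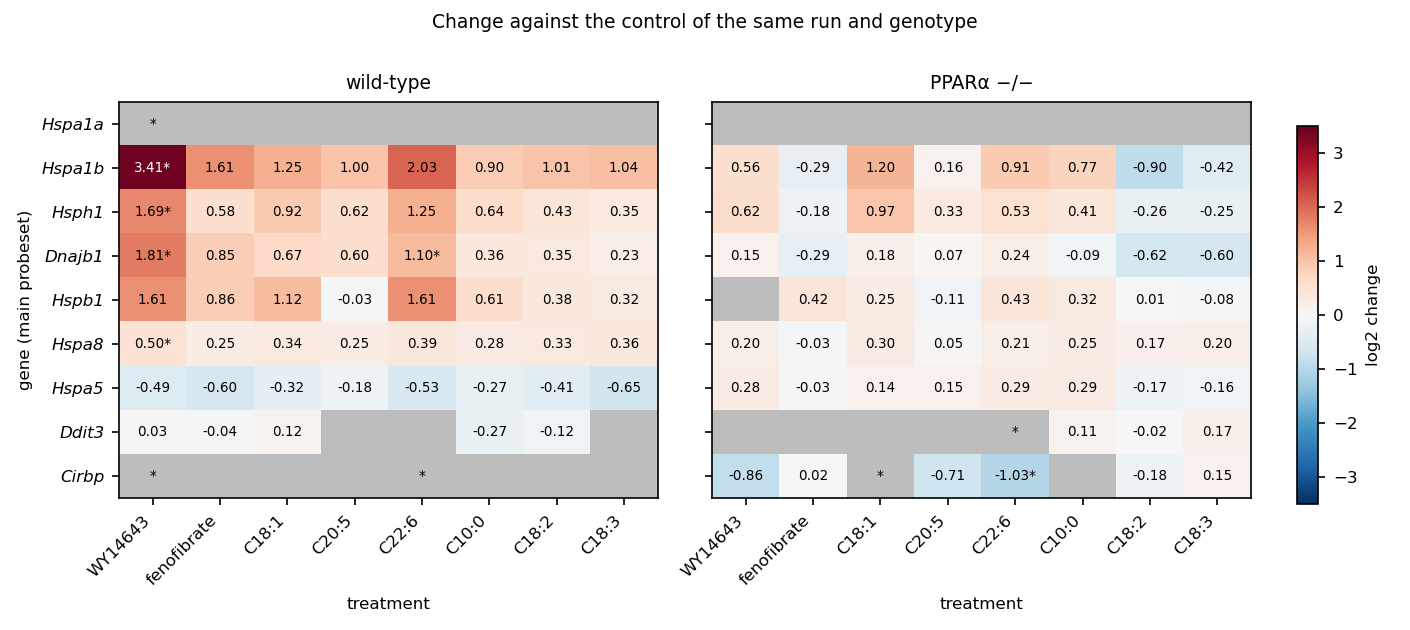
Log2 change of each member's main probeset (rows) for 8 treatments (columns) in wild-type and PPARα −/− mice, each against the control of its run and genotype. Colour and number give the change, an asterisk marks an adjusted p under 0.05, and grey marks a comparison with a group near background, where no fold is given. Called changes of the cytosolic chaperones stand in the wild-type WY14643 and C22:6 columns.

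In PPARα −/− mice 0 of 18 member probesets were called with WY14643, where 0.0% of all probesets were, and 0 with fenofibrate (0.126% of all). At an unadjusted p under 0.05 the counts were 2 and 0, where 6.48% and 7.62% of all probesets passed. Hspa1b measured 7.43, 5.80, 9.75, 7.30 and 8.03 in PPARα −/− controls and 8.61, 8.09, 7.94, 8.12 and 8.35 after WY14643. The treated mice lay inside the range of the controls, with a change of 0.56 (SE 0.70, adjusted p = 0.97). Dnajb1 was 6.80 to 7.97 in controls and 7.25 to 7.52 after WY14643 (change 0.15, SE 0.27, adjusted p = 0.98).

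The WY14643 response itself was tested for a difference between genotypes. Of the 18 probesets 4 were called, all with a lower change in PPARα −/− mice (22.2%, against 16.7% of all probesets). Dnajb1 differed by -1.66 (SE 0.42, adjusted p = 0.0028) and by -1.38 with its second probeset (adjusted p = 0.0037). Hspa1a also differed (adjusted p = 0.0011), near background in both PPARα −/− groups. Hspa1b differed by -3.15 with 1427127_x_at (adjusted p = 0.049) but missed the threshold with its main probeset (-2.85, SE 1.09, adjusted p = 0.062) and with 1427126_at (-2.88, adjusted p = 0.13). The call of 1427127_x_at was itself lost with no filter on variation (adjusted p = 0.052), with the filter on signal (0.052), on 83 arrays (0.057), with quantile normalization (0.053), and in 15 of 17 fits with 1 mouse left out. Hsph1 differed by -1.07 (SE 0.58, adjusted p = 0.23), so a difference between the genotypes was not shown for it.

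The genotype difference was called for 0 of 18 member probesets with each of the other 7 treatments. Over all probesets, 7.31% were called for fenofibrate, 0.0% for C18:1, 0.029% for C20:5, 3.25% for C22:6, 0.0193% for C10:0, 0.0% for C18:2 and 1.02% for C18:3. Among main probesets the nearest to the threshold were Ddit3 with C22:6 (adjusted p = 0.055) and Dnajb1 with fenofibrate (difference -1.14, SE 0.41, adjusted p = 0.078). With PPARα −/− C22:6 mice 2 and 5 left out after seeing the data, these adjusted p were 0.48 and 0.04. Between control mice of the 2 genotypes no member probeset was called in either run (0 of 18 in each), while 9.12% of all probesets were called in the first run and 7.59% in the later run. At an unadjusted p under 0.05 the counts were 0 and 1, where 22.6% and 19.7% of all probesets passed.

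Triglycerides in PPARα −/− mice gave 3 member calls in all. There was 1 with C18:1 and 2 with C22:6, and 0 with C20:5, C10:0, C18:2 and C18:3. Percentages called over all probesets were 1.48% for C18:1, 0.0676% for C20:5, 14.9% for C22:6, 6.92% for C10:0, 0.271% for C18:2 and 10.6% for C18:3. At an unadjusted p under 0.05, 4 member probesets passed with C18:1 (14.8% of all probesets did), 0 with C20:5 (5.32%), 4 with C22:6 (29.5%), 2 with C10:0 (22.8%), 1 with C18:2 (13.5%) and 2 with C18:3 (25.9%). None of the cytosolic chaperones was among the calls. Hsph1 with C18:1 measured 7.67 to 8.62 against 6.31 to 8.31 in controls (change 0.97, adjusted p = 0.17), and leaving out control mouse 3 brought a call (1.27, adjusted p = 0.046). Dnajb1 with C18:3 lay below all 4 controls (6.92 to 7.31 against 7.39 to 8.26, change -0.60, adjusted p = 0.16).

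Ddit3 was the member that rose with C22:6 in PPARα −/− mice. Controls were near background at 4.58, 4.36, 4.81, 4.69 and 4.53, and treated mice measured 4.59, 7.50, 5.58, 5.08 and 6.48 (adjusted p = 0.003). Mice 2 and 5 were the high ones and mouse 1 lay among the controls. Against C20:5, at 4.91, 4.30, 4.50 and 5.15, C22:6 was 1.13 higher (SE 0.31, adjusted p = 0.032), the only call of 18 in that contrast, where 3.18% of all probesets were called. That call was lost in 6 of 9 fits with 1 mouse left out, and the call against control without C22:6 mouse 2 (adjusted p = 0.066). Wild-type mice given C22:6 stayed near background, from 3.98 to 4.81. With WY14643 the PPARα −/− mice measured 5.00 to 5.41, above all controls, but without a call (adjusted p = 0.76).

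The arrays of C22:6 PPARα −/− mice 2 and 5 had the lowest correlations with their own group of all arrays, 0.9229 and 0.9255. With both left out the Ddit3 change was no longer called against control (adjusted p = 0.40) or against C20:5 (0.37, adjusted p = 0.71). Mouse 5 was also the highest of all mice for Hspa1b, at 12.36, and high for Hspa5 (12.71), Hspa1a (8.54) and Dnajb1 (9.01). The other 4 mice of that group ranged from 6.26 to 9.31 for Hspa1b.

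Macrophage markers also rose in that group, where 14.9% of all probesets were called. Of 13 measured, 10 rose and 0 fell with C22:6 in PPARα −/− mice (median change 1.12), led by Cd68 (1.53, adjusted p = 0.0096), Lyz2 (1.32, adjusted p = 0.04) and C1qa (1.30, adjusted p = 0.0044). Their summed log2 signal was 11.62 to 12.55 in treated and 9.10 to 12.03 in control mice. The Kupffer cell lectin Clec4f rose by 0.83 (adjusted p = 0.008). Of 9 endothelial markers 1 rose (Lyve1, 2.00, adjusted p = 0.035), of 10 stellate markers 0 were called, of 4 blood cell markers 1 fell (Alas2, -0.64, adjusted p = 0.0047), and of 12 hepatocyte markers 0 were called. No cholangiocyte marker was among the tested probesets. The part of macrophages in the Ddit3 result was not tested.

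Hspa5 was not called with any of the 8 treatments in either genotype. In wild-type mice its 8 changes ran from -0.65 to -0.18 and none was called. The first-run controls measured 11.47, 12.63 and 11.83, so they spread over more than a log2 unit, and control mouse 1 of the later run stood at 12.84. With C18:3, Hspa5 was 11.13, 11.49, 11.55, 11.55 and 10.96 against 12.84, 11.62, 11.49 and 11.99 (change -0.65, SE 0.22, adjusted p = 0.079). With WY14643 it was 11.37, 11.52, 11.15 and 11.90 (change -0.49, SE 0.25, adjusted p = 0.14), and leaving out control mouse 1 brought a call (-0.75, adjusted p = 0.038), while leaving out control mouse 2 reduced the change to -0.16 (adjusted p = 0.73). Changes in PPARα −/− mice ran from -0.17 to 0.29 with no call.

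Cirbp fell with WY14643 and C22:6 in wild-type mice and with C18:1 and C22:6 in PPARα −/− mice, at signals close to background. Wild-type controls of the first run measured 5.44, 4.51 and 5.27. After WY14643 the signals were 3.84, 3.11, 3.00 and 3.00 (adjusted p = 0.00028), and after C22:6 they were 3.82, 4.37, 4.00, 3.74 and 1.83 (adjusted p = 0.0087), in both cases below every control. The C22:6 call was lost without C22:6 mouse 5, control mouse 1 or control mouse 3 (adjusted p = 0.084, 0.065 and 0.055). The other wild-type treatments were near background with no call, and C18:1 passed the study's threshold (3.80, 3.82, 4.36, 3.42 and 2.88, unadjusted p = 0.00052, adjusted p = 0.16).

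In PPARα −/− mice the Cirbp controls stood at 6.00, 5.73, 5.48, 5.82 and 5.20. With C18:1 all 5 mice were lower and near background, at 4.69, 4.11, 3.59, 4.71 and 3.82 (adjusted p = 0.012). With C22:6 they were 4.95, 5.19, 3.49, 5.78 and 3.66, overlapping the controls, a fall by 1.03 (SE 0.34, adjusted p = 0.028). That call was lost in 5 of 10 fits with 1 mouse left out and without mice 2 and 5 together (adjusted p = 0.2). Leaving out C18:1 mouse 3 or control mouse 1 ended the C18:1 call (adjusted p = 0.072 and 0.053). Fenofibrate left the mean at 5.66 against 5.65 in controls. The genotype difference in the WY14643 response of Cirbp was not called (adjusted p = 0.23).

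**Figure D3:**
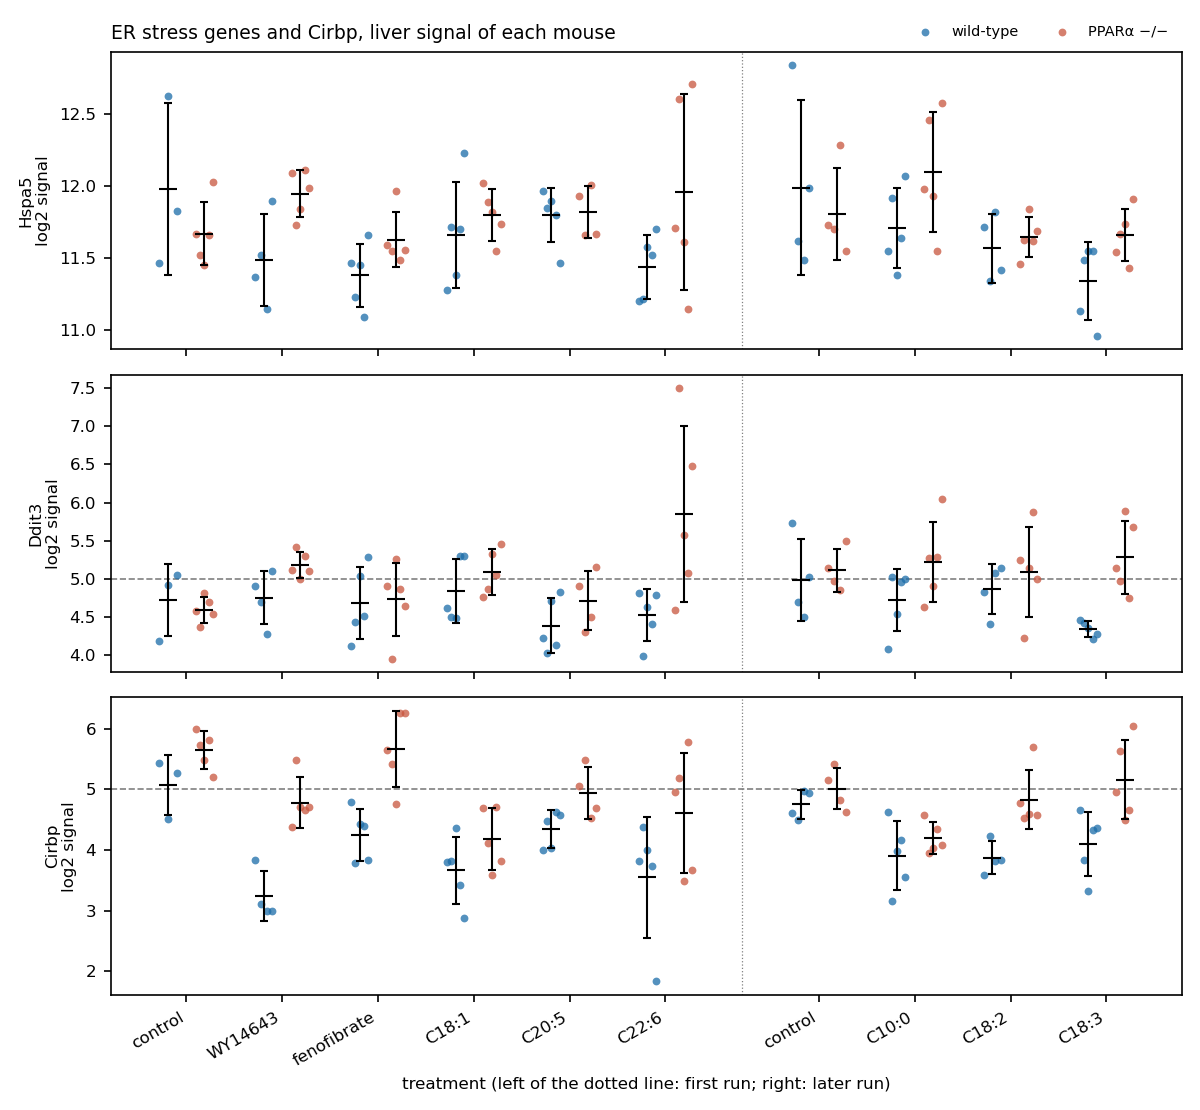
Log2 signal of Hspa5, Ddit3 and Cirbp (main probesets, y axes) in every mouse, by treatment and genotype (x axis). Points are mice, horizontal marks are means, bars are ± 1 SD and the dashed line for Ddit3 and Cirbp is the near-background level of 5. Ddit3 reached 7.50 and 6.48 in 2 PPARα −/− mice given C22:6, and Cirbp of the 4 wild-type mice given WY14643 lay below 4.

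The remaining contrasts between treatments of one run gave 0 member calls of 18 each. Over all probesets the percentages in wild-type mice were 1.26% for C20:5 against C18:1, 4.42% for C22:6 against C18:1, 0.0387% for C22:6 against C20:5, 0.00966% for C18:2 against C10:0, 0.0193% for C18:3 against C10:0 and 0.0% for C18:3 against C18:2. In PPARα −/− mice they were 0.0966% for WY14643 against fenofibrate, 0.193% for C20:5 against C18:1, 0.329% for C22:6 against C18:1, 0.0193% for C18:2 against C10:0, 0.879% for C18:3 against C10:0 and 0.0% for C18:3 against C18:2. Dnajb1 of PPARα −/− mice was 6.92 to 7.31 with C18:3 and 7.38 to 7.90 with C10:0, without overlap (change -0.52, adjusted p = 0.35).

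The 6 cytosolic chaperones varied together from mouse to mouse. With each signal centred on the mean of its run, Pearson's r over 93 mice was 0.91 for Hsph1 with Dnajb1, 0.89 for Hspa1b with Hsph1 and 0.86 for Hspa1b with Dnajb1, and the lowest r among the 6 was 0.55 (Hspa8 with Hspb1). Taken on deviations from group means, which leave out the treatments, these were 0.88, 0.82, 0.73 and 0.54. Cirbp ran opposite to Hsph1 (r = -0.84, and -0.65 on deviations). The r of Hspa5 with Hsph1 was -0.03 (0.27 on deviations), and Hspa5 ran with Ddit3 (0.54 and 0.52). Values of one mouse share an array and its normalization, so these are descriptions. Hspa1a lay under a log2 signal of 5 in 87 of the 93 arrays. The r were not recomputed without mice high for several chaperones, such as wild-type C18:1 mouse 5 and PPARα −/− C22:6 mouse 5.

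**Figure D4:**
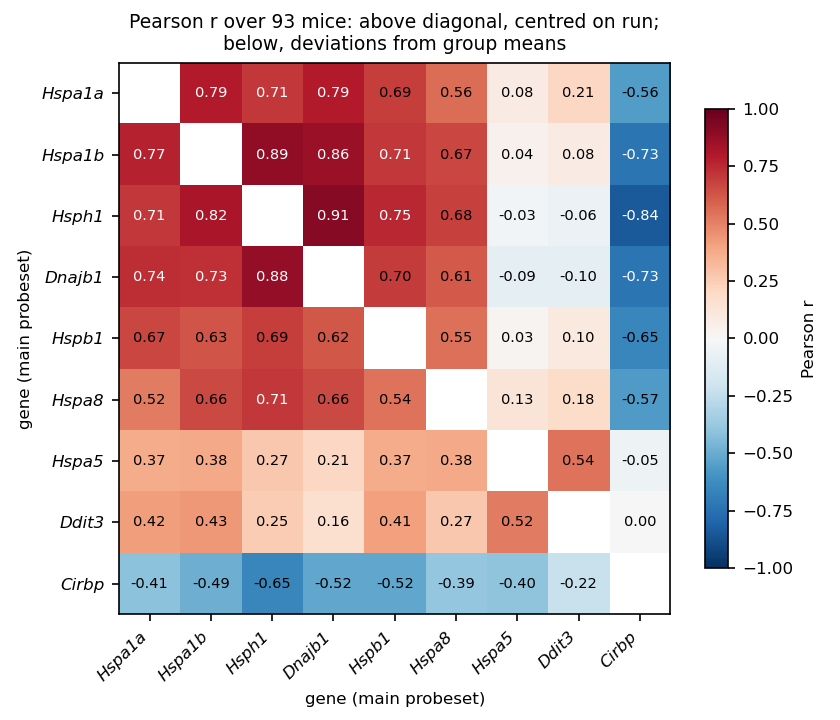
Pearson r between the main probesets of the 9 genes over 93 mice. Above the diagonal, signals were centred on the mean of their run, and below it they are deviations from group means. The 6 cytosolic chaperones form a block from 0.52 to 0.91, Cirbp is negative with each of them, and Hspa5 and Ddit3 are positive with each other.

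Outside the members, the genes most like Hsph1 were Chordc1 (r = 0.934), an HSP90 co-chaperone, Hsp90aa1 (0.883), the inducible cytosolic HSP90, and Stip1 (0.839), which links HSP70 to HSP90. On deviations these were 0.848, 0.77 and 0.651. Chordc1 and Hsp90aa1 also led for Hspa1b (0.868 and 0.86, deviations 0.774 and 0.748, followed by E2f8 at 0.757 and 0.58) and Dnajb1 (0.867 and 0.854, deviations 0.763 and 0.699, followed by Cacybp at 0.828 and 0.714). Hspb1 was most like Hsp90aa1 (0.762, deviations 0.742), Ahsa1 (0.753, 0.657) and Chordc1 (0.736, 0.671). For Hspa1a the genes were P4ha1 (0.769, 0.699), Dnaja1 (0.757, 0.659) and Bag3 (0.739, 0.684), and for Hspa8 Dnajb4 (0.68, 0.63), Dnaja1 (0.635, 0.513) and Oser1 (0.631, 0.494).

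Hspa5 was most like the ER genes Manf (0.931, deviations 0.94), Syvn1 (0.852, 0.842) and Hspa13 (0.821, 0.758). Ddit3 was most like Vps37c (0.705, 0.584), the stress-induced factor Atf3 (0.703, 0.561) and Piga (0.687, 0.549). Cirbp was most like Rab11b (0.703), Ddx52 (0.687) and Nmi (0.681), but these fell to 0.319, 0.423 and 0.325 on deviations, and its lowest r was with Chordc1 (-0.845, deviations -0.659).

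Other genes of the same pathways were counted from lists chosen with earlier results of these data known, so their shares are descriptions and no test. Of 28 other cytosolic heat shock genes and HSP70 or HSP90 partners, 13 rose and 0 fell with WY14643 in wild-type mice (46.4%, against 26.8% of all probesets; median 0.38, against -0.05). The largest were Hspa4l (1.42, adjusted p = 0.0032), an HSP110 relative, Hsp90aa1 (1.08, adjusted p = 0.00019) and Chordc1 (0.99, adjusted p = 0.00079). With C22:6 there were 7 higher and 0 lower (25.0%, against 5.87% of all), led by the HSP90 partner Fkbp5 (1.33, adjusted p = 0.039), Hsp90aa1 (0.81, adjusted p = 0.014) and Chordc1 (0.78, adjusted p = 0.026). Fkbp5 is also a known glucocorticoid target. In PPARα −/− mice given C22:6, Fkbp5 rose (1.37, adjusted p = 0.0063) and Fkbp4 fell (-0.73, adjusted p = 0.0028), the only calls of the list (7.14%, against 14.9% of all).

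ER chaperones and unfolded protein response genes went the other way with WY14643. Control mouse 2, high for Hspa5 at 12.63, was 1 of 3 wild-type controls here, and the list was not refitted without that mouse. Of 49 measured, 0 rose and 19 fell (38.8%, against 26.8% of all, median -0.39), the largest being the disulfide isomerase Pdia5 (-1.48, adjusted p = 4.8e-10), the secreted ER protein Manf (-1.10, adjusted p = 0.02) and the ER stress kinase Eif2ak3 (-1.09, adjusted p = 0.0058). With fenofibrate 1 rose and 8 fell (18.4%, against 13.9% of all). With C22:6 0 rose and 3 fell (6.12%, near the 5.87% of all), namely Pdia5 (-0.70, adjusted p = 0.006), Edem2 (-0.56, adjusted p = 0.016) and Selenos (-0.49, adjusted p = 0.0088). In PPARα −/− mice given C22:6, 4 rose and 0 fell (8.16%, below the 14.9% of all), with Eif2ak3 at 1.00 (adjusted p = 0.0067), Atf6 at 0.58 (adjusted p = 0.012) and Edem3 at 0.45 (adjusted p = 0.0031) the largest. With C18:3 in PPARα −/− mice 0 rose and 9 fell (18.4%, against 10.6% of all), led by Fkbp11 (-1.33, adjusted p = 0.0033), Sec61b (-0.83, adjusted p = 0.0011) and Pdia6 (-0.58, adjusted p = 0.045), at a Hspa5 change of -0.16.

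Of 21 genes of the ATF4 and CHOP arm of the stress response, 2 rose and 3 fell with WY14643 in wild-type mice, a share (23.8%) below that of all probesets (26.8%). Chac1, a glutathione-degrading enzyme, fell by 2.66 (adjusted p = 3.2e-06), while the hormone gene Fgf21 (2.64, adjusted p = 4.7e-05) and Vldlr (2.02, adjusted p = 0.00047) rose, both also known PPARα targets. In PPARα −/− mice given C22:6, 4 genes rose and 1 fell (23.8%, against 14.9% of all). Ddit3 rose there too, but its call was lost without mice 2 and 5, and this list was not refitted without them. Atf3 rose by 2.14 (adjusted p = 0.00013) and Chac1 by 1.28 (adjusted p = 0.015), and Shmt2 fell by 0.69 (adjusted p = 0.0014). Of 14 mitochondrial chaperones and proteases, 7 rose and 1 fell with WY14643 in wild-type mice (57.1%, against 26.8% of all), among them Grpel2 (1.74, adjusted p = 2e-07) and Phb2 (0.66, adjusted p = 8.2e-09) higher and Clpx lower (-1.07, adjusted p = 0.002). Of 8 genes of the chaperonin TRiC and prefoldin, Cct3 (0.42, adjusted p = 0.014) and Cct7 (0.35, adjusted p = 0.009) rose and 0 fell, a share (25.0%) near that of all probesets. Of 11 other cold shock and temperature-linked RNA-binding genes, 0 were called with WY14643 and 1 with C22:6 (Rbmx, -0.61, adjusted p = 0.011). Over all probesets 26.8% and 5.87% were called in these wild-type comparisons. Of 4 blood cell markers 0 were called with WY14643.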

How the data were processed

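Liver RNA of 93 mice was measured on Affymetrix whole-genome mouse arrays. The deposited table held linear intensity values for 11463 probesets, normalized by the authors with GC-RMA (version 2.20) and filtered by them to remove probesets of low inter-quartile range. Taking log2, 51 control probesets were left out and probesets with an inter-quartile range of at least 0.25 over the 83 arrays other than C10:0 were kept (10349). Array medians were 135.4 to 145.0 in the first run and 153.6 to 167.3 in the later run, so groups were compared within a run. Groups held 3 to 5 arrays. For each probeset the SE and p rest on a spread pooled over all 20 groups and moderated over probesets, not on the groups compared alone.

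Group means of all 20 groups were fitted with limma 3.58.1 (R 4.3.3), with Benjamini-Hochberg adjustment over all tested probesets, after a check on simulated data. Probesets were named from the platform annotation (10279 with 1 symbol, 406 with several, 727 with none). Near background meant all arrays of a group under a log2 signal of 5. Of 3 Ppara probesets, 1 separated the genotypes, at no less than 8.10 in wild-type and no more than 7.93 in PPARα −/− mice, and the part of the gene that the others report is not given in the sources used here. From each list the 3 genes with the largest change among those called were named, and the 3 non-member genes with the highest r. Members and lists were chosen with earlier results of these data known. Same-numbered mice deviated together (every pair over 0.1) only for WY14643 in PPARα −/− mice (r = 0.112 to 0.304 over 5 pairs), where the block left 0 member calls. Alternatives covered filters, scaling, weights, the intensity trend, the groups fitted, the block and each array left out. P-values measure the spread between these mice, 1 array each. Motifs were searched on both strands.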

Additional observations from a re-analysis of the deposited data

Results flagged for a closer look

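In 171 groups of 4 or 5 mice (9 main probesets), 15 had a mouse far from the others of its group, where chance gives about 1 in 20 groups (8.6). The 9 probesets were read in the same mice and vary together, so these are not independent and the 2 numbers are not a test. For Hspa1a the mice were wild-type C18:1 mouse 5 (log2 signal 6.36), wild-type C20:5 mouse 5 (3.98), wild-type C18:3 mouse 2 (3.75) and PPARα −/− C22:6 mouse 5 (8.54), the C20:5 and C18:3 mice in groups near background. For Hspa1b it was PPARα −/− C18:3 mouse 4 (5.25, low). For Hspa8 they were PPARα −/− control mouse 3 of the first run (12.20), wild-type C18:1 mouse 5 (12.91), PPARα −/− C18:1 mouse 5 (12.01, low) and PPARα −/− control mouse 4 of the later run (12.49). Hspa5 stood apart in PPARα −/− fenofibrate mouse 3 (11.97), Hsph1 in wild-type C10:0 mouse 1 (8.39, low) and Dnajb1 in PPARα −/− C22:6 mouse 5 (9.01). Cirbp stood apart in wild-type WY14643 mouse 1 (3.84), wild-type C22:6 mouse 5 (1.83, low) and PPARα −/− C18:2 mouse 4 (5.69).

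The response to WY14643 differed between the genotypes for Hspa1a (adjusted p = 0.0011), Hspa1b 1427127_x_at (adjusted p = 0.049) and both Dnajb1 probesets (adjusted p = 0.0028 and 0.0037), each with a lower change in PPARα −/− mice. The Hspa1b call was lost with no filter on variation, with the filter on signal, on 83 arrays, with quantile normalization (adjusted p = 0.052 to 0.057) and in 15 of 17 fits with 1 mouse left out.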

How the results depend on the processing

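The count of member calls over the 8 wild-type treatments was 16. It was 26 with array weights, 26 at an unadjusted p under 0.01 and 10 with the replicate number as a block, and 13 to 20 with 1 array left out. Over the 8 PPARα −/− treatments it was 3, against 8 with array weights, 1 when only the groups compared were fitted and 1 without C22:6 mice 2 and 5 of that genotype, an alternative added after seeing the data (1 to 7 with 1 array left out). For differences between genotypes it was 4, against 9 at an unadjusted p under 0.01 and 7 without those 2 mice (3 to 7 with 1 array left out). Over the contrasts between treatments it was 3, against 14 with array weights and 13 at an unadjusted p under 0.01 (1 to 5 with 1 array left out). Between untreated genotypes it was 0 under every alternative run, including 0 at an unadjusted p under 0.01. With C22:6 in wild-type mice the 4 calls became 0 with the block or with only the groups compared fitted, and 8 with array weights. With only the groups compared fitted, fenofibrate in wild-type mice gave 4 calls in place of 0. Array weights gave 6 calls in place of 1 for C18:1 in PPARα −/− mice, and 10 in place of 2 for WY14643 against fenofibrate. The replicate block left the wild-type WY14643 count at 10, below the 12 without it, and the Hspa8 call there was lost (change 0.40, adjusted p = 0.074), as was the genotype difference of Hspa1b 1427127_x_at (-2.91, adjusted p = 0.10). No called change of a main probeset turned its sign under any alternative run. Quantile normalization, the intensity trend and the absence of a filter changed no call among the 236 changes of main probesets, but quantile normalization and the absence of a filter each ended 1 call of another probeset, the genotype difference of Hspa1b 1427127_x_at, and the cause of the other changes was not tested. Signal over background limits Hspa1a, Ddit3 and Cirbp.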
